A study of Mus musculus with 15 samples.

Results

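The unfolded protein response and protein folding in the endoplasmic reticulum (ER) were followed through 36 genes of germinal centre B cells and of the plasmablasts that leave the germinal centre. The 36 members were taken by symbol from the 23420 rows of the deposited mouse expression table, with the requirement of a value above 0 in at least 3 of 15 libraries, and all 36 met it. They comprised 3 sensors, 4 genes of the PERK arm and of stress signalling, 11 chaperones and cofactors, 9 enzymes of disulfide bond formation and 9 factors of ER-associated degradation. Ern1 met the requirement only through the 3 plasmablast libraries, so a higher level there was built into its choice. The other 35 members were above 0 in libraries outside the plasmablasts too.

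Each of 5 groups had 3 libraries, and each library was made from 100 sorted cells. All donor B cells were CD45.1+ and carried B1-8hi (KI/+), a knock-in heavy chain that gives binding to the hapten NP. Recipients were C57BL6 mice given NP-CGG with complete Freund's adjuvant (CFA) as the immunization, whose draining nodes were taken for sorting on day 12. Cells of the dark zone (DZ), Fraction 3, Fraction 2 and Fraction 1 came from B1-8hi (KI/+) Bcl6-YFP (KI/+) donors, in which 1 Bcl6 allele carries the reporter, and were B220+CD45.1+CD38loGL7hi. DZ was CXCR4hiCD86lo, and the light zone cells were divided into Fraction 3 (Bcl6hi CD69lo), Fraction 2 (Bcl6hi CD69hi) and Fraction 1 (Bcl6lo CD69hi). Germinal centre derived plasmablasts (GC-PB, CD45.1+CD138hiCD44hi tdTomato+) came from donors with the same B1-8hi (KI/+), the transgene S1pr2-ERT2cre Tg and the Cre reporter ROSA-Ai14 (KI/+), and tamoxifen was given on days 6, 7 and 8. Their tdTomato label therefore depended on Cre under S1pr2, and donor alleles and tamoxifen separated GC-PB from the other 4 groups. Mouse ages are not given in the sources used here, and the replicates are described as separate library preparations without saying whether they came from separate mice. The p-values thus measure the spread between libraries, which may be technical.

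The ER is where secreted and membrane proteins fold. When unfolded protein accumulates there, IRE1 (Ern1), ATF6 and PERK (Eif2ak3) signal to the nucleus: IRE1 splices the Xbp1 transcript, ATF6 is cleaved to a transcription factor, and PERK slows translation while favouring ATF4 and, downstream, CHOP (Ddit3). Their targets include chaperones, disulfide enzymes and the machinery that extracts misfolded proteins for degradation. Plasma cells secrete antibody in bulk, and the XBP1 arm is known for enlarging their ER, whereas the PERK arm is described as little engaged in that differentiation.

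Promoters were compared because many members moved together between Fraction 1 and GC-PB. The RefSeq table (GRCm38.p6, the assembly also called mm10) held a promoter for 32 of the 36 members, all but Atf6, Hyou1, Manf and Derl1. These 32 members had 37 windows, since 4 of them have more than 1 RefSeq start, and a member was counted where any of its windows held the element. The 250 bases before each start were searched on both strands for the ER stress response element (ERSE, which is CCAAT, 9 bases of any kind and CCACG), ERSE-II (ATTGG, any base and CCACG), the unfolded protein response element (UPRE, TGACGTGG), the C/EBP-ATF element (TGATGNAA) and the CCAAT box, which is also contained in ERSE and, reversed, in ERSE-II. ERSE is known as a site of ATF6 and XBP1 with NF-Y. ERSE was found in 10 of 32 members (31.2%), in 10 of their 37 windows, and in 37 of all 32851 windows of the table (0.113%). The 10 were Hspa5, Hsp90b1, Calr, Canx, Dnajc3, Creld2, Pdia6, Ero1lb, Syvn1 and Derl3. The members were chosen as genes of this response, so a share above that of all windows was in part built into the list. ERSE-II was found in Herpud1 (10 windows of the table, 0.0304%), UPRE in Txndc5 and Txndc11 (185 windows, 0.563%), and the C/EBP-ATF element in Txndc5 and Herpud1 (1134 windows, 3.45%). A CCAAT box was present in 25 of 32 members (78.1%) and in 33.8% of all windows.

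The sequences below show ERSE in Hspa5, its textbook example, in Hsp90b1 with its pair of copies, in Creld2, Derl3 and Dnajc3, which also rose in GC-PB, and in Canx, which carries the element and was not called. ERSE-II and UPRE are shown where they were found. Capitals mark the fixed letters of the element, each is written 5′ to 3′ on the strand of its gene, and CGTGG with ATTGG is ERSE read on the other strand. Short flanks are given where the window touches an annotated exon. The UPRE of Txndc5 precedes 1 of its 3 RefSeq starts and that of Txndc11 1 of its 2, and both stretches, like that of Hspa5, lie inside the gene as GENCODE annotates it.
Hspa5, ERSE, chr2:34772020-34772048, plus strand: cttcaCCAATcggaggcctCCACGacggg
Hsp90b1, ERSE nearer the start, chr10:86705513-86705571, minus strand: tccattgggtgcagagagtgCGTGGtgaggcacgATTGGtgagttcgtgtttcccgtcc
Hsp90b1, ERSE farther from the start, chr10:86705618-86705676, minus strand: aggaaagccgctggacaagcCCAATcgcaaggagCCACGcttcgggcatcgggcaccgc
Creld2, ERSE, chr15:88819500-88819558, plus strand: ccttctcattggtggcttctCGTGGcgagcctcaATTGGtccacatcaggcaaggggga
Derl3, ERSE, chr10:75893222-75893280, plus strand: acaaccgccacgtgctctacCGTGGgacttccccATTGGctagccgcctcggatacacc
Dnajc3, ERSE, chr14:118937807-118937865, plus strand: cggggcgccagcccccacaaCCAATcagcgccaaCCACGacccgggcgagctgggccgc
Canx, ERSE, chr11:50325780-50325838, minus strand: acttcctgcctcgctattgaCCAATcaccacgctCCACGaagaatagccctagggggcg
Herpud1, ERSE-II, chr8:94386357-94386407, plus strand: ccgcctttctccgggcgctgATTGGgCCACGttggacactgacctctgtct
Txndc5, UPRE, chr13:38528040-38528057, minus strand: gccgcTGACGTGGcgcta
Txndc11, UPRE, chr16:11134622-11134639, minus strand: gtggcTGACGTGGagagt
Of the 10 members with ERSE, 9 were higher in GC-PB than in Fraction 1 (median log2 change 2.61, from 0.06 in Canx to 4.95 in Hsp90b1). Of the members whose windows held none, Ern1 left out, 17 of 21 were higher (median 1.98, from -0.11 to 4.28). Among all genes tested 14.1% were called higher, and the median was -0.06, so most members rose with or without the element. The elements are matches of letters, given as a description with no test.

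Levels are values at equal library totals: each library was scaled to a total of 38594 without Rn45s, a ribosomal RNA precursor, on which scale 1 molecule is worth 0.107 to 0.233. A log2 change is the difference in log2(level + 1) from limma with its SE, which understates the change of low genes. P-values were adjusted by Benjamini-Hochberg over the 11190 genes tested, those above 0 in 3 or more libraries, and a gene was called where the adjusted value was below 0.05. Before scaling, totals ran from 27942 to 115088. The most frequent value above 0 of each library was taken as 1 molecule, and by it the totals stand for 184103 to 376992 molecules. Some values lie below it, such as Ddx3y at 0.0355 in Fraction 1 replicate 2, where 1 molecule is worth 0.107. Fraction 1 and GC-PB had the highest deposited totals (110747 and 72158 on average, against 30564 to 40215 in the other groups), and whether these carry the spike-in normalization is not given in the sources used here. On the deposited scale the median log2 change of all tested genes was 0.64 for Fraction 1 vs Fraction 2 (-0.04 at equal totals). For GC-PB vs Fraction 1 it was -0.42 (-0.06 at equal totals). The deposited median was 0.15 for Fraction 2 vs Fraction 3, 0.13 for Fraction 2 vs DZ and 0.25 for GC-PB vs DZ (0.00, 0.01 and -0.10 at equal totals). The same 2 groups differed from the other 3 in sex-linked transcripts: Xist was above 0 in all 6 libraries of Fraction 1 and GC-PB and at 0 in the other 9, where Ddx3y was 3.91 to 6.21 against 0 to 0.0406. Comparisons across that divide, which are Fraction 1 vs Fraction 2 and also GC-PB vs DZ, cannot be told apart from it, and the other comparisons lie within a side.

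Markers matched the sorted populations in part. The level summed over 8 plasmablast markers averaged 79.1 in DZ, 58.0 in Fraction 3, 46.2 in Fraction 2, 31.6 in Fraction 1 and 2315 in GC-PB, and Sdc1, which encodes CD138, was at 0 in 11 of 12 germinal centre libraries and 11.4 to 15.8 in GC-PB. Bcl6, a germinal centre regulator, was above 0 in all 12 germinal centre libraries and at 0 in GC-PB, while the B cell factor Pax5 was above 0 in only 6 libraries. The T cell genes Cd3e, Cd4, Themis and Bcl11b were at 0 in all 15 libraries, the T cell list summed to at most 5.88, nearly all of it Lck, and the 10 myeloid markers in the table summed to at most 2.56. GC-PB replicate 1 stood apart from its 2 partners, with a chi-square per gene of 2.77 and 2.18 against 1.42 between the partners and 1.07 to 1.38 within the other groups.

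In GC-PB the folding machinery of the ER took up a far larger part of the library total than in any germinal centre group. The 36 members held 3.88% ± 0.14 (SD, n = 3) of the library total there, against 0.494% ± 0.028 in Fraction 1, 0.459% ± 0.040 in Fraction 2, 0.436% ± 0.009 in Fraction 3 and 0.376% ± 0.012 in DZ. The 3 GC-PB libraries ranged from 3.78% to 4.04% and the 12 others from 0.368% to 0.514%, so they did not overlap. Hsp90b1, which encodes the ER chaperone GRP94, alone held 1.11% in GC-PB, and the other members together held 2.77%. In a pool of sorted cells, fewer cells of a type and less RNA per cell cannot be told apart.

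**Figure D1:**
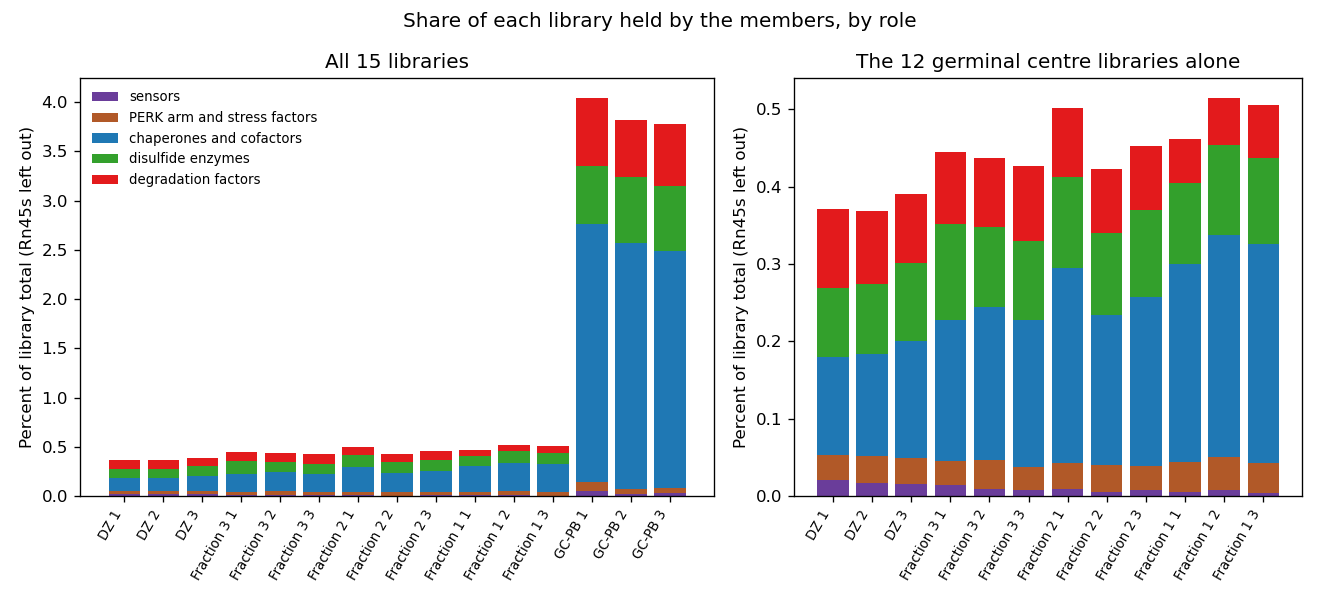
Percent of the library total (Rn45s left out) held by the 36 members, stacked by role, for all 15 libraries (left) and for the 12 germinal centre libraries on a smaller axis (right); each bar is 1 library. The GC-PB bars reach 3.78% to 4.04%, while the others lie between 0.368% and 0.514%. The mean chaperone share is 0.136% in DZ and 0.275% in Fraction 1, groups on opposite sides of the sex-linked divide.

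Between GC-PB and Fraction 1, which lie on the same side of the sex-linked divide, 30 of the 35 members other than Ern1 were higher and 0 lower by limma, and 0 were lower also at an unadjusted p under 0.05. Counts of 36 below include Ern1, whose direction was fixed by its choice, and the call for it makes 31 of 36. Among all genes tested, 14.1% were called higher and 22.3% lower. The median log2 change was 2.42 over the 35 and 2.35 over the 36, against -0.06 over all genes tested. By role, the 2 sensors other than Ern1 were higher (median 1.57), as were 1 of 4 PERK arm genes (0.43), 10 of 11 chaperones (2.56), 8 of 9 disulfide enzymes (2.28) and 9 of 9 degradation factors (2.59). For 29 of the 35 members every GC-PB library lay above all 12 germinal centre libraries, which held for 8.8% of all genes tested. The 5 members that were not called were Ddit3, Trib3, Ppp1r15a, Canx and Ero1l. On the deposited scale 27 of the 35 were higher and 1, Canx, was lower, where 11.2% of all genes tested were called higher and 45.8% lower. Against DZ, a comparison across the divide that was added after the values were seen, 32 of the 35 members were higher and 1 was lower, while 12.6% of all genes were higher and 23.3% lower; the median change was 2.75 against -0.10. Both comparisons use the same GC-PB libraries. Rn45s took a larger share in GC-PB (8.34% to 9.97%) than in Fraction 1 (3.87% to 4.75%). With Rn45s kept in the totals 31 of 36 members, Ern1 included, were again higher than in Fraction 1. The share of all genes called with those totals was not counted.

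**Figure D2:**
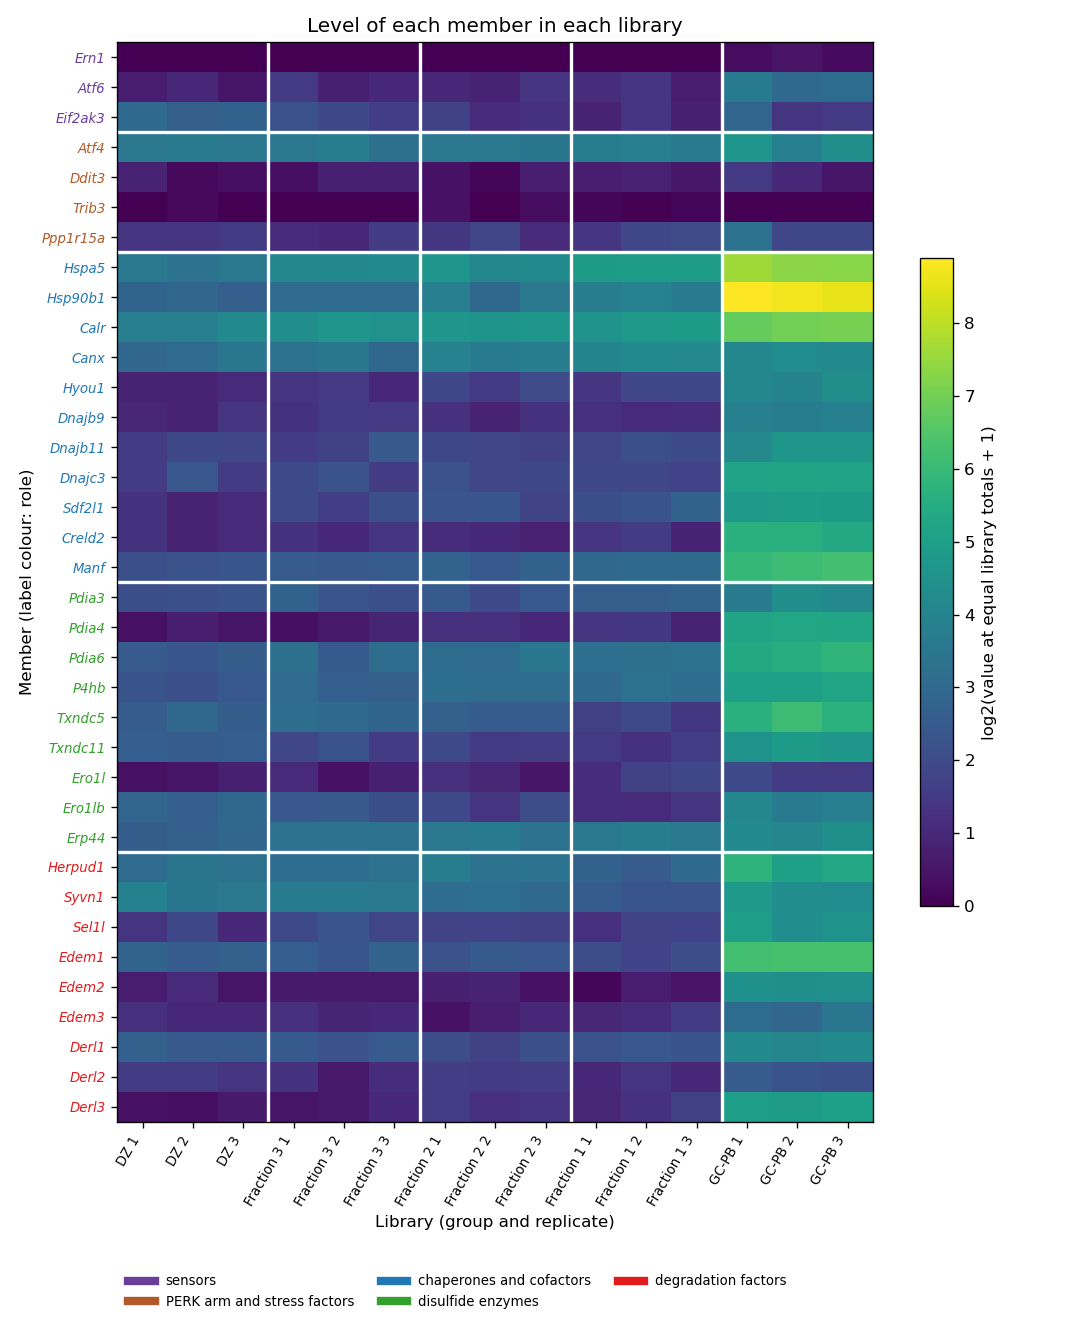
Level of each of the 36 members (rows, label colour by role) in each of the 15 libraries (columns), as log2(level + 1) on the colour scale. In 29 of the 35 rows other than Ern1 each GC-PB column exceeds all 12 germinal centre columns, and Ern1 is at 0 outside GC-PB and at most 0.394 there (level).

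Among the sensors, Atf6 changed most. Its level was 0.641, 0.966 and 0.434 in DZ, 1.88, 0.701 and 1.06 in Fraction 3, 0.963, 0.807 and 1.53 in Fraction 2, 1.18, 1.5 and 0.616 in Fraction 1, and 11.4, 7.29 and 7.85 in GC-PB. All 3 GC-PB libraries thus lay above all others, and the 4 germinal centre groups overlapped. The log2 change from Fraction 1 to GC-PB was 2.23 ± 0.24 (adjusted p = 1.58e-07), an 8.05-fold ratio of means. Between neighbouring germinal centre groups Atf6 was not called (0.37 ± 0.24, -0.06 ± 0.24 and -0.01 ± 0.24 in order, adjusted p = 0.652, 0.979 and 1), nor was it between Fraction 2 and DZ (0.32 ± 0.24, adjusted p = 0.615).

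Ern1, which encodes IRE1, the kinase and nuclease that splices Xbp1, was listed at 0 in all 12 germinal centre libraries. Its levels in GC-PB were 0.233, 0.394 and 0.206, which stand for 1, 2 and 1 molecules. No fold or test is given for it.

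Eif2ak3, which encodes PERK, was highest in DZ among the germinal centre groups. Its level was 7.21, 5.52 and 5.79 in DZ, 3.62, 2.80 and 2.11 in Fraction 3, 2.29, 1.15 and 1.42 in Fraction 2 and 0.824, 1.61 and 0.739 in Fraction 1. The DZ libraries lay above all 9 light zone libraries, and neighbouring light zone fractions overlapped. Eif2ak3 fell by 1.47 ± 0.30 on the log2 scale from DZ to Fraction 2 (adjusted p = 0.00681, 3.81-fold lower; -1.18 and adjusted p = 0.0623 on the deposited scale), while the steps between neighbours were not called (-0.91 ± 0.30, -0.56 ± 0.30 and -0.35 ± 0.30, adjusted p = 0.229, 0.515 and 0.589). The last of these turned to 0.55 on the deposited scale.

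In GC-PB the 3 libraries split for Eif2ak3, with 6.52 in replicate 1 and 1.58 and 1.86 in the others. They overlapped both Fraction 1 and DZ. The call against Fraction 1 (0.91 ± 0.30, adjusted p = 0.0208) was lost without GC-PB replicate 1 (0.42, adjusted p = 0.188), without Fraction 1 replicate 1 (adjusted p = 0.0717) or replicate 3 (0.0809), and on the deposited scale (0.58, adjusted p = 0.151). The lower call against DZ (-0.90 ± 0.30, adjusted p = 0.0224) was lost without DZ replicate 1 (adjusted p = 0.0848), GC-PB replicate 2 (-0.62, 0.14) or GC-PB replicate 3 (-0.70, 0.113), and was -0.05 on the deposited scale (adjusted p = 0.941).

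Downstream of PERK, 1 of the 4 genes was called in GC-PB against Fraction 1. Atf4, its transcription factor, was 10.4, 11.9 and 10.4 in DZ, 10.6, 12.6 and 8.63 in Fraction 3, 10.6, 10.6 and 9.85 in Fraction 2, 12.7, 13 and 11.4 in Fraction 1, and 24.2, 13.2 and 19.8 in GC-PB. The lowest GC-PB library was just above the highest of the others. Atf4 was called higher in GC-PB than in Fraction 1 at equal totals (0.55 ± 0.17, adjusted p = 0.0125, 1.54-fold), but the sign turned on the deposited scale (-0.11, adjusted p = 0.569). The call was also lost without GC-PB replicate 1 (0.36, adjusted p = 0.088) or Fraction 1 replicate 3 (0.50, adjusted p = 0.0532). Against DZ the change was 0.72 ± 0.17 (adjusted p = 0.00166). The steps from DZ through Fraction 3 and Fraction 2 to Fraction 1 were -0.05 ± 0.17, -0.02 ± 0.17 and 0.24 ± 0.17 (adjusted p = 0.974, 0.998 and 0.479), and the second turned to 0.36 on the deposited scale. Fraction 2 minus DZ was -0.07 ± 0.17 (adjusted p = 0.925; 0.25 as deposited).

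Ddit3, which encodes CHOP, a factor of prolonged ER stress, was at 0.115 to 0.801 in the 12 germinal centre libraries and at 1.86, 0.985 and 0.413 in GC-PB. Those libraries overlapped. The change from Fraction 1 to GC-PB was 0.32 ± 0.24 (adjusted p = 0.336), with a sign that turned on the deposited scale (-0.01), and against DZ it was 0.53 ± 0.24 (adjusted p = 0.0884). Leaving out DZ replicate 1 (0.73, adjusted p = 0.0362) or GC-PB replicate 3 (0.79, adjusted p = 0.0164) made the DZ comparison a call for Ddit3, as did the deposited scale (1.01, adjusted p = 0.00694). Trib3, a pseudokinase induced by ATF4 and CHOP, was above 0 in 5 libraries, at 1 to 3 molecules each, and at 0 in all 3 GC-PB libraries (-0.11 ± 0.09 against Fraction 1, adjusted p = 0.409).

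Ppp1r15a encodes GADD34, which reverses the translational arrest set by PERK. It was 1.05 to 3.20 in the germinal centre libraries and 9.31, 2.76 and 2.69 in GC-PB, so that replicate 1 again stood apart. It was not called against Fraction 1 (0.60 ± 0.31, adjusted p = 0.141) and was called against DZ (0.97 ± 0.31, adjusted p = 0.017), a call that was lost without GC-PB replicate 1 (0.48, adjusted p = 0.151) or DZ replicate 2 (0.93, adjusted p = 0.0519). No member of the PERK arm was called between neighbouring germinal centre groups at equal totals. As deposited, Atf4 (1.62), Ddit3 (0.96) and Ppp1r15a (1.49) were higher in Fraction 1 than in Fraction 2.

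The chaperones made up most of the gain in GC-PB, with 2.51% ± 0.11 of the total against 0.275% ± 0.017 in Fraction 1 (SD, n = 3). Hsp90b1 (chromosome 10, 86690209 to 86705509, minus strand), whose 250 bases hold 2 ERSE, had the largest log2 change of the 36. Its level was 6.25, 6.62 and 5.50 in DZ, 7.67, 7.53 and 7.57 in Fraction 3, 13, 6.92 and 10.6 in Fraction 2, 12.4, 14.4 and 11.7 in Fraction 1, and 474, 426 and 382 in GC-PB. No GC-PB library came near the others. Exons of Hsp90b1, and likewise of Manf and Pdia4, overlap another annotated gene on the same strand, so that their reads could be shared. The change against Fraction 1 was 4.95 ± 0.15 (adjusted p = 1.84e-15, 33.3-fold), and against DZ 5.91 ± 0.15 (adjusted p = 1.18e-16, 69.8-fold).

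Hspa5 (chromosome 2, 34771970 to 34777547, plus strand) encodes BiP, the Hsp70 chaperone of the ER that also holds the sensors inactive. Its level was 10.7, 8.97 and 10.8 in DZ, 16.5, 16.6 and 18.0 in Fraction 3, 24.3, 15.9 and 17.5 in Fraction 2, 28, 28.5 and 28.3 in Fraction 1, and 194, 163 and 160 in GC-PB. Fraction 3 lay above DZ, Fraction 1 above Fraction 2 and GC-PB above all, while Fraction 2 and Fraction 3 overlapped. The change from Fraction 1 to GC-PB was 2.56 ± 0.13 (adjusted p = 1.88e-12, 6.09-fold).

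Other chaperones and cofactors were higher in GC-PB too. Creld2, a secreted stress protein, went from 1.53, 1.93 and 0.862 in Fraction 1 to 49.1, 46.1 and 39.9 (4.26 ± 0.19, adjusted p = 2.89e-13, 31.2-fold). Dnajc3, a BiP cochaperone also known as p58IPK, went from 2.82, 2.69 and 2.46 to 34.7, 35.9 and 33.9 (3.29 ± 0.20, adjusted p = 5.19e-11). Manf, a secreted ER stress factor, went from 6.94, 7.20 and 7.51 to 59.4, 67.6 and 74.4 (3.05 ± 0.13, adjusted p = 1.67e-13). None of these libraries overlapped. The BiP cochaperones Dnajb9 and Dnajb11 rose by 2.69 ± 0.18 and 2.54 ± 0.21, the cofactor Sdf2l1 by 2.44 ± 0.19, and Hyou1, an exchange factor of BiP, by 2.42 ± 0.20 (adjusted p from 1.65e-10 to 3.14e-09).

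The 2 lectin chaperones, which fold glycoproteins side by side, had unlike values in GC-PB. Calr, the soluble one, was 22.7, 27.2 and 28.1 in Fraction 1 and 110, 126 and 132 in GC-PB (2.20 ± 0.13, adjusted p = 1.35e-11, 4.72-fold). Canx, the membrane-bound one, was 15.3, 17.5 and 17.4 in Fraction 1 and 16.3, 18.3 and 18.0 in GC-PB, libraries that overlapped. Canx was not called at equal totals and was called lower on the deposited scale. Its levels in DZ were 6.73, 7.73 and 10.1, in Fraction 3 9.26, 10.2 and 7.04 and in Fraction 2 14.2, 11.3 and 12.7, so that all GC-PB libraries lay above DZ (1.03 ± 0.15, adjusted p = 9.78e-06).

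**Figure D3:**
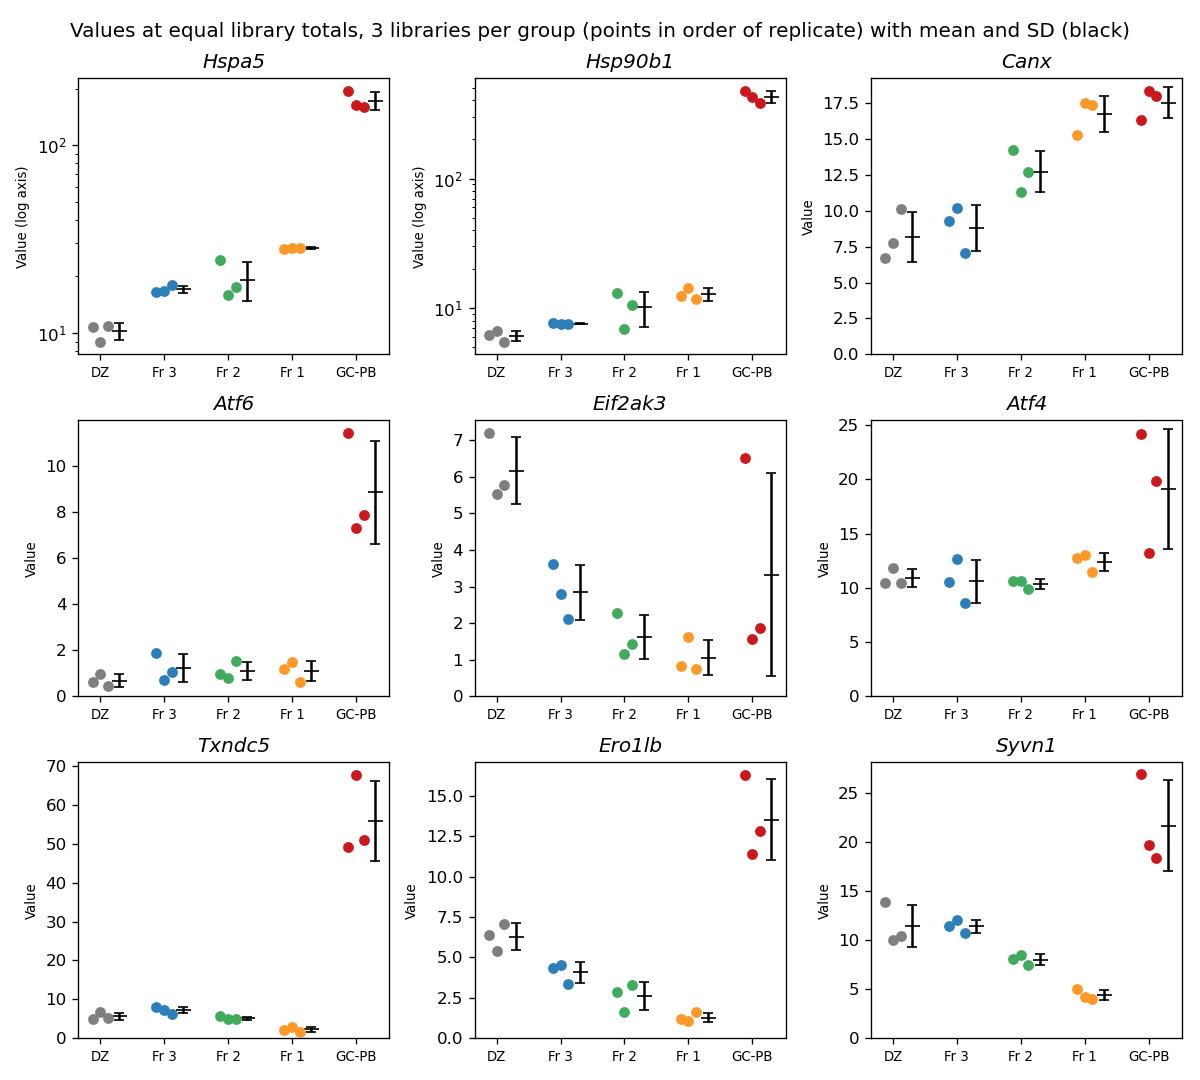
Levels of 9 members at equal library totals in DZ, Fraction 3, Fraction 2, Fraction 1 (Fr 3 to Fr 1) and GC-PB; coloured points are libraries, black marks are the mean and SD of 3 libraries, and the axes of Hspa5 and Hsp90b1 are logarithmic. Hspa5 and Hsp90b1 step up in GC-PB, Canx overlaps between Fraction 1 and GC-PB, Eif2ak3 is highest in DZ with 1 high GC-PB library, and Txndc5, Ero1lb and Syvn1 are lowest in Fraction 1 and highest in GC-PB.

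The enzymes of disulfide bond formation held 0.642% ± 0.045 of the total in GC-PB against 0.111% ± 0.006 in Fraction 1. Txndc5 (chromosome 13, 38500079 to 38528824, minus strand), a protein disulfide isomerase with a UPRE before 1 of its RefSeq starts, was 4.96, 6.76 and 5.21 in DZ, 7.96, 7.36 and 6.34 in Fraction 3, 5.66, 4.96 and 5.03 in Fraction 2, 2.24, 2.90 and 1.72 in Fraction 1 and 49.1, 67.6 and 50.8 in GC-PB. Fraction 1 was below every other library and GC-PB above. From Fraction 1 to GC-PB it rose by 4.11 ± 0.16 (adjusted p = 3.53e-14, 24.4-fold). Pdia4, another isomerase, went from 1.65, 1.72 and 0.862 to 35.2, 38.0 and 37.2 (3.99 ± 0.19, adjusted p = 9.21e-13, 26.1-fold).

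The other isomerases were higher as well. The change was 3.23 ± 0.17 for Txndc11, 2.28 ± 0.17 for Pdia6, 1.88 ± 0.14 for P4hb and 1.34 ± 0.19 for Pdia3 (adjusted p from 6.00e-12 to 6.75e-06). Erp44, which retains ER proteins, was 10.8, 12.3 and 10.4 in Fraction 1 and 17.5, 15.4 and 20.4 in GC-PB (0.62 ± 0.14, adjusted p = 0.000937), and its sign turned on the deposited scale (-0.03, adjusted p = 0.878).

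The 2 ER oxidases pass electrons from the isomerases to oxygen. Ero1lb was 6.41, 5.38 and 7.09 in DZ, 4.34, 4.56 and 3.35 in Fraction 3, 2.89, 1.61 and 3.28 in Fraction 2, 1.18, 1.07 and 1.60 in Fraction 1 and 16.3, 11.4 and 12.8 in GC-PB. The change from Fraction 1 to GC-PB was 2.66 ± 0.19 (adjusted p = 4.21e-10, 10.5-fold), and against DZ 0.99 ± 0.19 (adjusted p = 0.000307). Ero1l was 1.18, 2.26 and 2.71 in Fraction 1 and 3.03, 1.97 and 1.86 in GC-PB, overlapping and not called, and in DZ it was 0.320, 0.414 and 0.723 (GC-PB against DZ 1.14 ± 0.25, adjusted p = 0.00112).

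Degradation factors held 0.633% ± 0.053 of the total in GC-PB, and 0.0621% ± 0.0057 in Fraction 1, the lowest of the 5 groups. Edem1, a lectin that hands misfolded glycoproteins to degradation, was 6.09, 4.97 and 5.64 in DZ, 5.35, 4.20 and 6.16 in Fraction 3, 3.61, 4.73 and 4.38 in Fraction 2, 3.29, 2.47 and 3.32 in Fraction 1 and 73.3, 78.6 and 78.9 in GC-PB (GC-PB against Fraction 1 4.28 ± 0.14, adjusted p = 5.48e-15, 25.4-fold). Edem2 was 0.118, 0.645 and 0.369 in Fraction 1 and 21.2, 20.5 and 21.3 in GC-PB (4.01 ± 0.20, adjusted p = 1.83e-12). Its ratio of means of 55.6 rests on 1 to 6 molecules per Fraction 1 library. Edem3 had a smaller change, 1.98 ± 0.21 (adjusted p = 1.59e-07).

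Of the derlins, which form part of the channel for retrotranslocation, Derl3 changed most. Its level was 0.320, 0.276 and 0.579 in DZ, 0.434, 0.526 and 1.06 in Fraction 3, 2.05, 1.27 and 1.53 in Fraction 2, 0.941, 1.40 and 2.22 in Fraction 1 and 30.7, 28.6 and 31.6 in GC-PB. The GC-PB libraries stood clear of all others (3.67 ± 0.20 against Fraction 1, adjusted p = 8.67e-12, 19.96-fold). Derl1 rose by 1.85 ± 0.15 and Derl2 by 1.21 ± 0.20 (adjusted p = 2.85e-09 and 5.08e-05).

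The ubiquitin ligase complex of the ER membrane rose as well. Syvn1, the ligase HRD1, was 13.9, 10.1 and 10.4 in DZ, 11.4, 12.1 and 10.7 in Fraction 3, 8.07, 8.53 and 7.44 in Fraction 2, 5.06, 4.19 and 4.06 in Fraction 1 and 27.0, 19.7 and 18.4 in GC-PB (2.05 ± 0.15 against Fraction 1, adjusted p = 5.80e-10). Its adaptor Sel1l was 1.29, 2.58 and 2.46 in Fraction 1 and 29.8, 19.3 and 22.9 in GC-PB (3.01 ± 0.22, adjusted p = 6.98e-10). Herpud1, a scaffold of the complex and the member with ERSE-II, was 5.77, 4.84 and 7.14 in Fraction 1 and 52.6, 32.1 and 38.2 in GC-PB (2.59 ± 0.16, adjusted p = 7.25e-11). Against DZ the change of Syvn1 was 0.86 ± 0.15 (adjusted p = 0.000101).

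**Figure D4:**
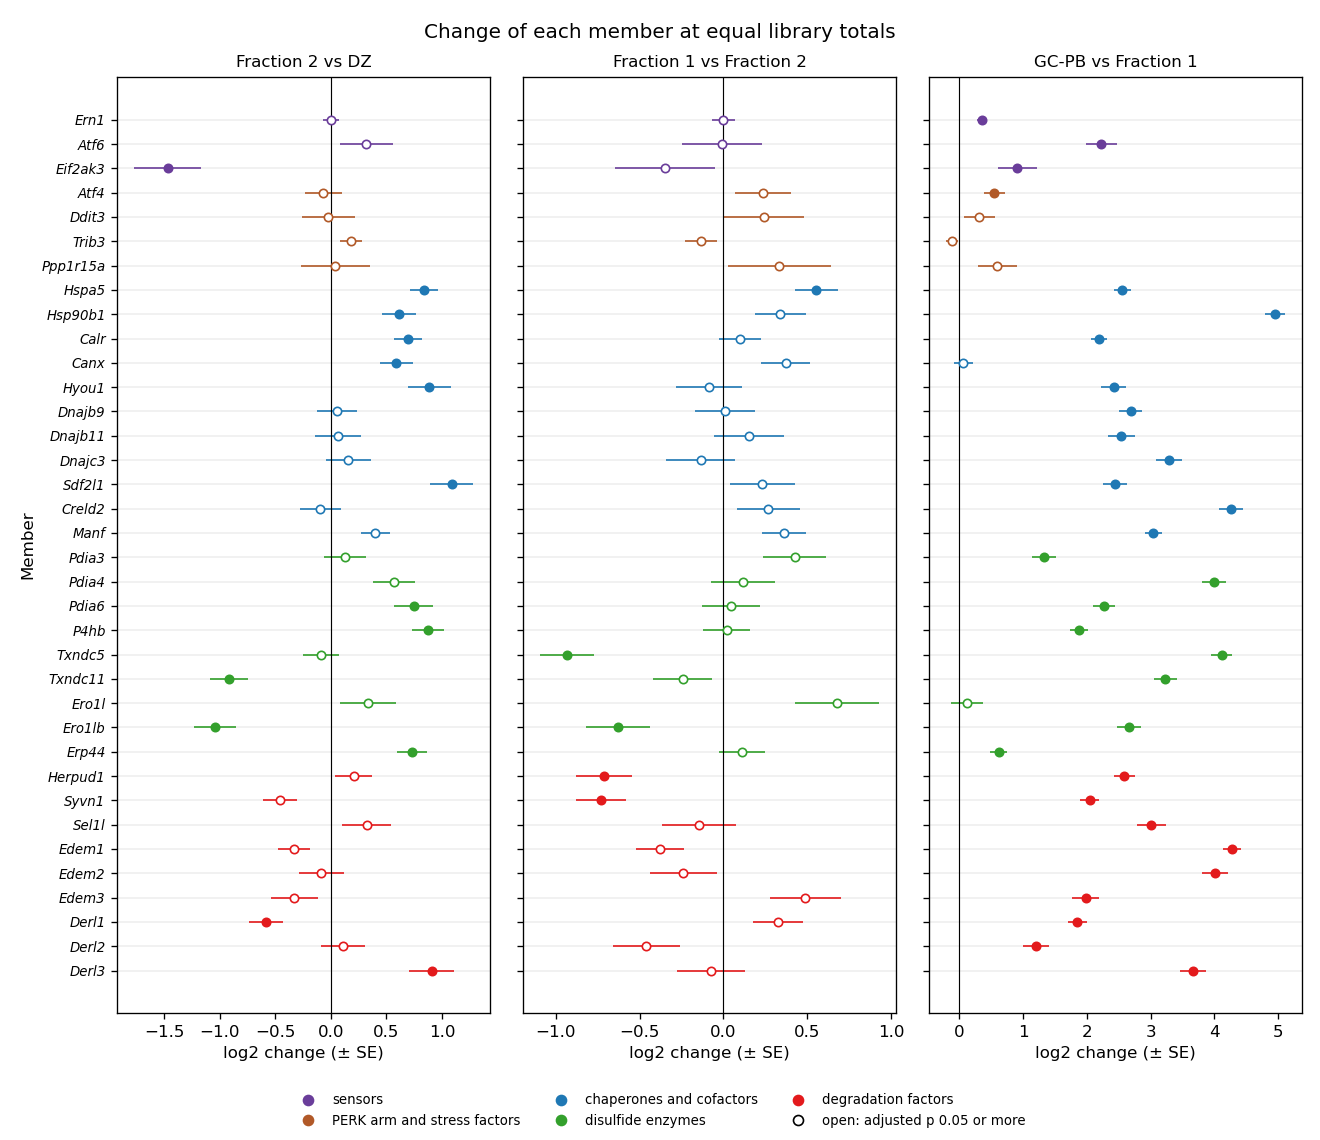
Log2 change of each member (points, lines are ± SE) at equal library totals in 3 comparisons, from left to right Fraction 2 vs DZ, Fraction 1 vs Fraction 2, then GC-PB vs Fraction 1; colours are roles and open points have an adjusted p of 0.05 or more. The 3 panels have different axes: in GC-PB vs Fraction 1 31 points, Ern1 included, are filled and all lie to the right, whereas Fraction 2 vs DZ has 10 filled to the right and 4 to the left.

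Within the germinal centre few members were called, and chaperones made up most of those that were higher. The mean share of the total held by chaperones was 0.136% ± 0.013 in DZ, 0.190% ± 0.008 in Fraction 3, 0.222% ± 0.029 in Fraction 2 and 0.275% ± 0.017 in Fraction 1, and that of degradation factors was 0.0948% ± 0.0061, 0.0934% ± 0.0034, 0.0852% ± 0.0043 and 0.0621% ± 0.0057 (SD, n = 3). Fraction 1 lies across the sex-linked divide from the other germinal centre groups, so its difference from them cannot be told apart from that divide. From DZ to Fraction 3, 4 of 36 members were higher and 1 was lower, against 0.572% and 0.483% of all genes tested, with a median change of 0.14 over members and 0.00 over all genes. The higher members were Hspa5 (0.69 ± 0.13, adjusted p = 0.00773), Calr (0.56 ± 0.13, 0.0323), Erp44 (0.59 ± 0.14, 0.0369) and Sdf2l1 (0.83 ± 0.19, 0.0373). Txndc11 was lower (-0.74 ± 0.17, adjusted p = 0.0434), with 5.29, 4.97 and 5.35 in DZ and 2.75, 3.68 and 1.94 in Fraction 3. For each of these 5 the libraries of the 2 groups did not overlap. Among all 36 members every Fraction 3 library lay above DZ for 7 and below for 4. Among the 11190 genes tested this held for 881 and 720. The calls depended on the scale and on single libraries: 0 members were called on the deposited scale (0.116% of all genes tested higher, 0.125% lower), without DZ replicate 2 or without Fraction 3 replicate 3 (Hspa5 then had adjusted p = 0.133, 0.0524 and 0.0573). Of the 5 calls, 1 remained without DZ replicate 1, 3 without DZ replicate 3 and 2 without Fraction 3 replicate 1. Without Fraction 3 replicate 2, 4 members were called, 3 of them among the 5.

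Between Fraction 2 and Fraction 3, which differ in CD69, 0 of 36 members were called by limma, against 0.438% of all genes higher and 0.25% lower. At an unadjusted p under 0.05, 8 members were higher (5.94% of all genes tested) and 4 were lower (5.3%). The 8 were Canx, Hsp90b1, Hyou1, Pdia4, P4hb, Derl2, Derl3 and Trib3, and the 4 were Txndc5, Ero1lb, Syvn1 and Derl1, named after their values were seen. The median change was 0.06 over members and 0.00 over all genes. On the deposited scale 4 members were higher and 0 lower, against 2.67% and 0.0179% of all genes.

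Over both steps together, from DZ to Fraction 2, a comparison added after the values were seen that shares its DZ libraries with the first step, 10 members were higher and 4 lower, against 1.66% and 1.84% of all genes. The median change was 0.14 over members and 0.01 over all genes. On the deposited scale 11 were higher and 1 was lower, against 3.03% and 0.42% of all genes. Of the 10, 6 were chaperones: Sdf2l1 (1.09 ± 0.19, adjusted p = 0.00182), Hyou1 (0.89 ± 0.20, 0.0124), Hspa5 (0.84 ± 0.13, 0.000392), Calr (0.69 ± 0.13, 0.00217), Hsp90b1 (0.61 ± 0.15, 0.0278) and Canx (0.59 ± 0.15, 0.0269). The others were the isomerases P4hb (0.87 ± 0.14, 0.000662) and Pdia6 (0.74 ± 0.17, 0.0159), Erp44 (0.73 ± 0.14, 0.00279) and Derl3 (0.91 ± 0.20, 0.0133). P4hb was 4.0, 3.45 and 4.48 in DZ and 8.19, 8.07 and 7.99 in Fraction 2. For all 14 called members the libraries of DZ and Fraction 2 did not overlap. Among all 36 members every Fraction 2 library lay above DZ for 13 and below for 6. Among the 11190 genes tested this held for 1152 and 1126.

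The 4 lower members in Fraction 2 were Eif2ak3, given above, Ero1lb (-1.04 ± 0.19, adjusted p = 0.00228), Txndc11 (-0.92 ± 0.17, 0.00362) and Derl1 (-0.58 ± 0.15, 0.0337). Txndc11 was 2.89, 1.96 and 2.08 in Fraction 2. On the deposited scale only Ero1lb was still called lower (-0.75), with adjusted p = 0.0803 for Txndc11 and 0.473 for Derl1. The number called ran from 8 without DZ replicate 2 to 13 without Fraction 2 replicate 2, and was 9 without Fraction 2 replicate 1. Calls lost when 1 library was left out were Hsp90b1 (adjusted p up to 0.189) and Canx (0.141) without Fraction 2 replicate 1, Derl1 (0.181, without Fraction 2 replicate 2), Pdia6 (0.114, without Fraction 2 replicate 3), Derl3 (0.0869, without Fraction 2 replicate 1) and Hyou1 (0.0849, without Fraction 2 replicate 3). Without DZ replicate 2 those 6 members were also not called (adjusted p from 0.0554 to 0.109). Leaving out DZ replicate 1 lost Hsp90b1 (0.07), Canx (0.14), Hyou1 (0.0505) and Derl1 (0.139), and leaving out DZ replicate 3 lost Hsp90b1 (0.119) and Derl1 (0.0763). Without Fraction 2 replicate 3 the calls of Hsp90b1 and Canx were lost too, and without Fraction 2 replicate 1 those of Hyou1 and Derl1. The other 8 calls stood without any single library.

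Between Fraction 1 and Fraction 2, which differ in Bcl6 and lie on opposite sides of the sex-linked divide, 1 member was higher and 4 were lower at equal totals, against 3.79% and 5.25% of all genes. The median change was 0.03 over members and -0.04 over all genes. Hspa5 was higher (0.55 ± 0.13, adjusted p = 0.00875). The lower ones were Txndc5 (-0.93 ± 0.16, adjusted p = 0.000726, 2.28-fold lower), Syvn1 (-0.73 ± 0.15, 0.00327), Herpud1 (-0.71 ± 0.16, 0.00848) and Ero1lb (-0.63 ± 0.19, 0.0423). Herpud1 was 12.2, 9.23 and 9.52 in Fraction 2, above all 3 Fraction 1 libraries. On the deposited scale all 4 turned (Txndc5 0.21, Ero1lb 0.35, Herpud1 0.60 and Syvn1 0.55), and 29 members were higher and 0 lower, where 54.7% of all genes were called higher and 0.563% lower. With median ratios 3 were higher and 3 lower, and the share of all genes called was not counted there. Against the median change of 0.64 on the deposited scale, these 4 still lay below the median gene.

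Single libraries mattered in Fraction 1 vs Fraction 2. The call of Hspa5 was lost without Fraction 2 replicate 2 (adjusted p = 0.0725) or replicate 3 (0.0528), and that of Herpud1 without Fraction 2 replicate 1 (0.0582) or Fraction 1 replicate 2 (0.0573). Ero1lb lost its call without Fraction 2 replicate 1 (0.151) or 3 (0.203) and without Fraction 1 replicate 1 (0.132) or 2 (0.144). The numbers called were 3 without Fraction 2 replicate 3 or Fraction 1 replicate 2, and 4 or 5 without the others. Txndc5 and Syvn1 kept their calls without any single library.

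Plasmablast markers differed in direction between Fraction 2 and Fraction 1. Igj, the immunoglobulin joining chain, averaged 40.9 in DZ, 30.8 in Fraction 3, 20.3 in Fraction 2, 6.02 in Fraction 1 and 1800 in GC-PB. Mzb1 averaged 16.1 in Fraction 2 and 10.2 in Fraction 1 and Xbp1 5.56 and 4.50, while Irf4, a plasma cell regulator, averaged 1.60 and 5.44 and Slamf7 2.63 and 5.32. The 8 markers summed to 45.5 to 47.2 in the Fraction 2 libraries and to 28.0 to 33.6 in those of Fraction 1, and the defining markers Sdc1 and Tnfrsf17, which encodes BCMA, were at 0 in all Fraction 2 libraries. The part of these markers in the result was not tested.

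A companion list of 49 ER genes outside the 36 had 48 rows in the table and 45 tested. Of these 31 were higher in GC-PB than in Fraction 1 and 3 were lower (14.1% and 22.3% of all genes), with a median change of 1.17, and for 29 of 45 all GC-PB libraries lay above all 12 others (8.8% of all genes). Creb3l2, Fkbp11 and Chac1 met the requirement of 3 libraries above 0 only through GC-PB. A higher level there was thus built into their choice, and the counts and the median include them. Xbp1, the transcription factor whose transcript IRE1 splices, was 4.16, 5.52 and 5.93 in DZ, 5.93, 6.83 and 5.46 in Fraction 3, 6.74, 3.81 and 6.13 in Fraction 2, 2.94, 5.37 and 5.17 in Fraction 1 and 243, 206 and 206 in GC-PB. The germinal centre groups overlapped, and the change from Fraction 1 to GC-PB was 5.35 ± 0.19 (adjusted p = 8.47e-15, 48.6-fold). The values do not separate spliced from unspliced Xbp1. Between the germinal centre groups Xbp1 was not called at equal totals (0.20 ± 0.19, -0.13 ± 0.19 and -0.26 ± 0.19 in order, adjusted p = 0.812, 0.88 and 0.5), and as deposited the last was 1.01 and called.

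Mzb1, an ER cofactor of antibody assembly, was 9.77, 10.5 and 10.3 in Fraction 1 and 254, 222 and 238 in GC-PB (4.41 ± 0.10, adjusted p = 7.46e-18). Fkbp11, a prolyl isomerase of secretory cells, was above 0 in 1 of 12 germinal centre libraries and 34.7, 31.1 and 27.5 in GC-PB. The next by p were Serp1, which stabilises translocating proteins (2.04 ± 0.10, adjusted p = 2.64e-12), the cyclophilin Ppib (2.68 ± 0.15, 1.55e-11) and the selenoprotein Selk (2.86 ± 0.18, 5.60e-11). The 3 lower genes were Ube2g2, Tmx2 and Mbtps2, named after their values were seen, and the libraries of Ube2g2 overlapped. Mbtps2 encodes a protease that releases ATF6. It was near the floor, with 0.471, 0.430 and 0.862 in Fraction 1 and 0, 0 and 0.413 in GC-PB. Mbtps1, also on the list, was not called (means of 1.85 in Fraction 1 and 1.63 in GC-PB).

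Within the germinal centre Mzb1 fell by 0.67 ± 0.10 on the log2 scale from DZ to Fraction 3 (adjusted p = 0.00222), where it was the single companion gene called. From DZ to Fraction 2 it fell by 0.71 ± 0.10 (adjusted p = 0.000163), with Ube2j1 (-0.54 ± 0.14, 0.0268) and Serp1 (-0.42 ± 0.10, 0.0279) as the other calls. On the deposited scale none of these 3 was called there (adjusted p = 0.0921, 0.565 and 0.872). The call of Ube2j1 was also lost without DZ replicate 1 or 2 or Fraction 2 replicate 1 or 3 (adjusted p from 0.0587 to 0.156), and that of Serp1 without DZ replicate 2 or 3 or Fraction 2 replicate 1 or 3 (0.0835 to 0.151). Mzb1 (-0.61 ± 0.10, adjusted p = 0.000559) and Serp1 (-0.49 ± 0.10, 0.00482) were lower in Fraction 1 than in Fraction 2, with signs that turned on the deposited scale (0.77 and 0.92).

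Of the companion genes known as targets of ATF4 and CHOP, Chac1 and Atf3 were named after their values were seen. Atf3 was called higher in GC-PB than in Fraction 1 (adjusted p = 0.0294 by limma). Chac1 met the requirement of 3 libraries above 0 only through GC-PB, so no test is given for it. Chac1 was 0.233, 0.394 and 0.620 in GC-PB, at 0 in Fraction 1 and at most 0.138 in the other libraries. In GC-PB 1 molecule is worth 0.197 to 0.233, so these levels stand for few molecules. Atf3 was 5.82 in GC-PB replicate 1, 0 and 0.620 in the other GC-PB libraries and at most 0.175 in the germinal centre. Its call was lost without GC-PB replicate 1 (adjusted p = 0.123) or any 1 of the Fraction 1 libraries (0.0535 to 0.0763). Nupr1 was at 0 in all 15 libraries. Sesn2, also on the companion list, was 0.233, 0 and 0 in GC-PB and at most 0.276 in the germinal centre. GC-PB replicate 1 was thus the highest library for Atf3, Ppp1r15a, Ddit3 and Atf4. It was also the highest for Hsp90b1 (474 against 426 and 382), Hspa5 (194 against 163 and 160) and Xbp1 (243 against 206 and 206). For other members it was the lowest GC-PB library, among them Calr (110 against 126 and 132), Manf (59.4 against 67.6 and 74.4) and Pdia6 (40.7 against 45.3 and 54.9). Hsp90b1, Hspa5 and Xbp1 were high in all 3 GC-PB libraries.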

How the data were processed

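RNA of 100 sorted cells per library was measured in 15 libraries. Per the labels' protocols, spike-in RNA was added for normalization and cDNA carried molecular barcodes. Per the submitters' processing notes, TopHat2 (version not given) and mm10 were used. The deposited signal states no unit. Between 91.0% and 92.6% of its values above 0 were whole multiples of a constant of that library within a tolerance of 0.02 of it, too few for a count test. That constant was the most frequent value above 0 of the library.

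Groups and replicate numbers came from the titles. Signal was scaled to equal totals, and limma 3.58.1 (R 4.3.3, intensity trend, 5 group means in 1 fit) was run on log2(level + 1). Python 3.11.15 drew figures with matplotlib 3.10.9. On data simulated for GC-PB vs Fraction 1 with 11206 genes tested, 38% of 2-fold and 99% of 4-fold changes at 20 or more molecules were recovered, and 9 unchanged genes were called. The simulation gave all groups a common mean per gene and a fixed spread, with 100 genes changed at each fold. In the data 14.1% of genes were called higher and 22.3% lower there, so these rates may not hold for them. Same-numbered libraries did not deviate together (r from -0.057 to 0.043 over 30 pairs).

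The members, the lists and the naming rule were chosen with earlier results of these data known. By that rule every member may be named by level. A change is printed for called members, for sensors and PERK arm genes, for Xbp1 and for up to 6 companion genes with the smallest p. Positions came from GENCODE, promoters from RefSeq. Exons of 12 members overlap another gene's, and strand use in counting is not given in the sources used here. Alternatives are in the closing section.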

Additional observations from a re-analysis of the deposited data

How the results depend on the processing

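Other scales, pseudocounts (0.25 and 4), low-value filters, the trend, the samples in the fit, a replicate block and leaving out each library were tried. Some called members kept their call in every alternative that tested them. These were 28 of 31 in GC-PB vs Fraction 1 and 31 of 34 in GC-PB vs DZ, Ern1 included. The direction of Ern1 was fixed by its choice, and the filter of 9 libraries left it out, so it had 15 alternatives in place of 16. In Fraction 2 vs DZ 2 of 14 kept their call, and in Fraction 3 vs DZ and Fraction 1 vs Fraction 2 0 of 5 each. Both comparisons of DZ with Fraction 2 and GC-PB were added after the values were seen. In Fraction 3 vs DZ 5 were called, 0 on the deposited scale, 3 with no filter, 1 with no intensity trend and 0 with only the 2 groups compared. Fraction 2 vs Fraction 3 had 0, and 4 on the deposited scale. Fraction 1 vs Fraction 2 had 5, 29 on the deposited scale and 3 with only the 2 groups, and Fraction 2 vs DZ had 14, 4 with only the 2 groups. Leaving out a library gave 0 to 4, 0 to 0, 3 to 5, 29 to 31, 8 to 13 and 33 to 34 calls in Fraction 3 vs DZ, Fraction 2 vs Fraction 3, Fraction 1 vs Fraction 2, GC-PB vs Fraction 1, Fraction 2 vs DZ and GC-PB vs DZ. For alternatives other than the deposited scale, the share of all genes called was not counted, so their counts have no background beside them.

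Signs turned on the deposited scale, whose totals differ between groups. In Fraction 2 vs Fraction 3 the values were 0.15 (Atf6), 0.36 (Atf4) and 0.22 (Xbp1). In Fraction 1 vs Fraction 2 they were 0.21 (Txndc5), 0.35 (Ero1lb), 0.60 (Herpud1), 0.55 (Syvn1), 0.90 (Atf6), 0.55 (Eif2ak3), 0.024 (Trib3), 1.01 (Xbp1), 0.77 (Mzb1) and 0.92 (Serp1). In GC-PB vs Fraction 1 they were -0.11 (Atf4), -0.033 (Erp44) and -0.012 (Ddit3), and in Fraction 2 vs DZ 0.25 (Atf4) and 0.055 (Ddit3). Atf4 in Fraction 2 vs Fraction 3 was 0.0053 with Rn45s kept, and Atf6 in Fraction 1 vs Fraction 2 was 0.048 with median ratios. Without a library, uncalled changes near 0 also turned: Atf4 in Fraction 3 vs DZ (-0.17 to 0.079) and in Fraction 2 vs Fraction 3 (-0.15 to 0.10), Atf6 in Fraction 2 vs Fraction 3 (-0.23 to 0.15) and in Fraction 1 vs Fraction 2 (-0.15 to 0.17), Xbp1 in Fraction 2 vs Fraction 3 (-0.27 to 0.075) and in Fraction 2 vs DZ (-0.073 to 0.27), and in Fraction 2 vs DZ Ddit3 (-0.17 to 0.17) and Ppp1r15a (-0.17 to 0.23). The cause was not tested.

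With the replicate number as a block, 2 members were called in Fraction 3 vs DZ in place of 5, and the number called was the same in the other comparisons (0, 5, 31, 14 and 34). The numbers did not pair the libraries.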
